A study of Mus musculus with 20 samples.

Results

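Of the 21887 protein-coding genes in the mouse GRCm38 annotation used here, 51 have a symbol that starts with Psma, Psmb, Psmc, Psmd, Psme, Psmf or Psmg followed by a digit, and these 51 genes, nearly all of the proteasome, are described here by their H3K27ac peaks. The rule takes the symbol alone and no measured value, but it was set with earlier results of these data known. Acetylation of histone H3 at lysine 27 (H3K27ac), found at promoters and enhancers in use, was profiled by ChIP-seq in RAW264.7, a mouse macrophage-like line that becomes osteoclast-like under RANKL. Cells were given RANKL (50 ng/ml) with the BET bromodomain inhibitor I-BET (500 nM), RANKL (50 ng/ml) alone or I-BET (500 nM) alone, each for 4 h, or were left untreated. The RANKL+I-BET, RANKL and untreated groups have 3 libraries each and I-BET has 1, numbered 3. All groups are the same cultured line. Separate cultures are not named in the labels, and the p-values cover only the variation among these libraries, some of which may be technical.

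The proteasome is the barrel-shaped protease that degrades ubiquitin-tagged proteins. Its 20S core stacks rings of alpha subunits (Psma genes), which gate the barrel, around rings of beta subunits (Psmb genes), which hold the active sites, and the 19S cap adds ATPases (Psmc genes) that unfold substrates and non-ATPase subunits (Psmd genes) that bind and deubiquitinate them. In macrophages and other cells exposed to interferon, Psmb9, Psmb10 and Psmb8 replace the constitutive catalytic subunits Psmb6, Psmb7 and Psmb5 and form the immunoproteasome, which favours peptides for antigen presentation. By role, the 51 genes comprise 8 alpha subunits, 7 constitutive beta subunits, 3 immunoproteasome subunits, the thymus-specific Psmb11, 6 ATPases, 14 Psmd genes, 4 activators (Psme1 to Psme4), the inhibitor Psmf1 and 4 assembly chaperones (Psmg1 to Psmg4). The remaining 3, Psmc3ip, Psme3ip1 and the Psme2-like copy Psme2b, match by symbol only and are no subunits.

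The promoters of the catalytic subunits are shown first, because the constitutive and immune forms are compared below. RefSeq (GRCm38.p6) gave 47 promoter windows for 43 of the 51 genes, each from 250 bases before to 50 after an annotated start, and the 5 windows below belong to the catalytic subunits that had an entry. Each is written 5′ to 3′ in the direction of the gene, and capitals mark matches, on either strand, to 6 motifs searched.
Psmb9 (chr17:34187281-34187580, minus strand): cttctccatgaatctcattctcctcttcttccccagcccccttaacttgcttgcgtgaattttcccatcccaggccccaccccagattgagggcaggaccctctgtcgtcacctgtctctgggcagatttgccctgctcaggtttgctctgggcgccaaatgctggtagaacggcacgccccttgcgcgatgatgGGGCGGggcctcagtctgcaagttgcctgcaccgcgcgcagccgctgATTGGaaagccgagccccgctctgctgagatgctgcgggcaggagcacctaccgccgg
Psmb10 (chr8:105938343-105938642, minus strand): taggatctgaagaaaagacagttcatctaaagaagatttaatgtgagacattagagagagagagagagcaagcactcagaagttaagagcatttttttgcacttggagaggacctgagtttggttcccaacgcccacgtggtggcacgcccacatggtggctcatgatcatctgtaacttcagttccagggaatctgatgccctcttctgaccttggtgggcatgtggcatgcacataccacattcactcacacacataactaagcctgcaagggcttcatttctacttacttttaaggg
Psmb8 (chr17:34197945-34198244, plus strand): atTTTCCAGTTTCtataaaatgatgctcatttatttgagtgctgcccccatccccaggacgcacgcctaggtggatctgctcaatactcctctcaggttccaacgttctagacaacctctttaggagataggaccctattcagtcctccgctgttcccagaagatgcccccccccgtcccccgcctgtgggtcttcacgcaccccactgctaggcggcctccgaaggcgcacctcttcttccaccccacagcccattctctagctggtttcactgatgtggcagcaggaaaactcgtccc
Psmb6 (chr11:70525107-70525406, plus strand): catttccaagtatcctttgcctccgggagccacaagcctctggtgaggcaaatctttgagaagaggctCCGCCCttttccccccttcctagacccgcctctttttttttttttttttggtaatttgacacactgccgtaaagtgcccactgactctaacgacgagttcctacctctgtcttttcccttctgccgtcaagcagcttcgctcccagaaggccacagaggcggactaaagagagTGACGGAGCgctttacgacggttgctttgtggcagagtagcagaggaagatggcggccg
Psmb5 (chr14:54617946-54618245, minus strand): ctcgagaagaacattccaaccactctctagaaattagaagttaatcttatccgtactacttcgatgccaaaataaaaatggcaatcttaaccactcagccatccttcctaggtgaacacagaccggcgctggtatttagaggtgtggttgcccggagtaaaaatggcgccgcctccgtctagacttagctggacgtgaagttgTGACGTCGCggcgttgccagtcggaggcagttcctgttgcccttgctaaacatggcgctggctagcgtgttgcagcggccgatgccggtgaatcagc
The capitals in Psmb9 are a GC box (GGGCGG) and the reverse complement of CCAAT, the NF-Y box. In Psmb8 they are TTTC followed after 3 bases by TTTC, a string searched as a likeness of the interferon response element. Repeats of TTTC at other spacings were not searched, so the match does not mark such an element. In Psmb6 and Psmb5 they are TGACNNNGC, the core of the antioxidant response element, with the reverse complement of a GC box in Psmb6. The Psmb10 window matched none of the 6 motifs and held 3 CpG dinucleotides, against 17 in Psmb9, 11 in Psmb8, 15 in Psmb6 and 20 in Psmb5. No match says only that these letters are not in this window.

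Over all promoter windows of the 51 genes, the ETS core CCGGAAG was in 17 of 47 windows (36.2%, from 16 genes) beside 11.6% of all 21263 windows. The NRF1 site core, GCGC followed after 2 bases by GCGC, was in 14.9% beside 8.57%. TTTC followed after 3 bases by TTTC was in 4.26% (Psmb3 and Psmb8) beside 2.6%. The GC box was in 53.2% beside 46.2%, TGACNNNGC in 12.8% beside 13.0% and CCAAT in 34.0% beside 38.2%. Proteasome promoters had a median of 19 CpG and 57.3% GC, and all promoters 13 CpG and 56.3% GC, so that base composition differs along with the motif shares. These are descriptions, and no match was tested as a binding site.

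A gene was counted as marked in a list if the list had a peak within 1 kb of either end of the gene, and its width was the summed length of those peaks. Lists differed greatly in extent, from 6041 peaks over 3.44 Mb in RANKL+I-BET replicate 2 to 141905 peaks over 185 Mb in RANKL replicate 2. The other 8 lists held 9893 to 17794 peaks over 7.79 to 25.9 Mb. The libraries numbered 2 are therefore given beside the others but kept out of the width comparisons between groups. The lists hold no read counts, so sequencing depth is unknown, and the 10 input libraries were not analysed here. As a check of the cell type, 6 to 10 of 10 macrophage markers (Spi1, Csf1r, Cd68 and others) were marked in each list. Outside RANKL replicate 2, 0 to 2 of 9 lymphocyte markers, 0 of 10 fibroblast and osteoblast markers and 0 of 10 markers of tissues not in the culture were marked. In RANKL replicate 2 the same lists gave 9, 6 and 8, so that a peak in that library alone is also found at genes foreign to the cell type.

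In every list, proteasome genes were marked more often than protein-coding genes at large. Of the 51, 47, 31 and 45 were marked in the 3 RANKL+I-BET lists, 47, 50 and 46 in the RANKL lists, 46 with I-BET, and 43, 38 and 47 in the untreated lists, in replicate order. Over all genes the shares were 41.7%, 17.3% and 36.7% with RANKL+I-BET, 41.5%, 74.0% and 41.8% with RANKL, 34.8% with I-BET and 32.5%, 27% and 37.7% untreated. The counts followed the extent of the lists, with the fewest genes in the shortest list and the most in the longest. In all, 42 of the 51 (82.4%) were marked in each of the 6 lists numbered 1 and 3 of the 3 groups, beside 28.5% of all genes, and 28 (54.9%) in all 10 lists, beside 13.6%. Proteasome genes are shorter (median 11.6 kb, beside 17.2 kb over all genes) and lie closer to neighbours, with 27 of 51 (52.9%) having a gene-end window that overlaps another gene's, beside 32.2%. The part of either property in the shares was not tested.

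**Figure D1:**
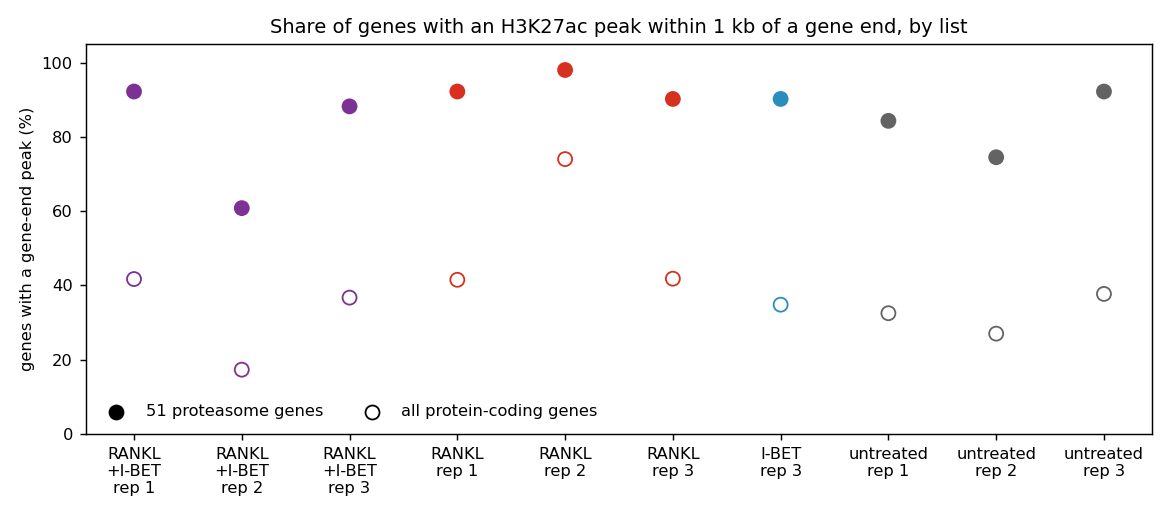
Share of the 51 proteasome genes (filled circles) and of all 21887 protein-coding genes (open circles) with an H3K27ac peak within 1 kb of a gene end, in each of the 10 peak lists (x axis), in percent (y axis). The filled circles lie between 60.8% and 98.0% and the open circles between 17.3% and 74.0%, and in each list the filled circle is higher.

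Groups were not separated by these counts. The mean number of marked proteasome genes was 41.0 ± 8.72 with RANKL+I-BET, 47.7 ± 2.08 with RANKL and 42.7 ± 4.51 untreated (SD, n = 3 lists each). Without the libraries numbered 2 it was 46.0 ± 1.41, 46.5 ± 0.707 and 45.0 ± 2.83 in the same order of groups (SD, n = 2 lists each). No proteasome gene was marked in both RANKL lists numbered 1 and 3 and in neither untreated list, a pattern of 1.8% of all genes, and none the other way, a pattern of 0.032%. For RANKL+I-BET against RANKL the count was also 0 in both directions (0.0274% and 0.567% of all genes), and for RANKL+I-BET against untreated likewise (0.731% and 0.064%). With 3 lists against 3 the count was again 0 in each comparison and direction. Over all genes the pattern of all 3 RANKL lists and no untreated list was found in 1.49%, that of all 3 RANKL lists and no RANKL+I-BET list in 0.553%, that of all 3 RANKL+I-BET lists and no untreated list in 0.0366%, and that of all 3 untreated lists and no RANKL+I-BET list in 0.0137%, with 0.0% for the others.

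Among the alpha subunits, Psma1 to Psma5 and Psma7 were marked in all 10 lists. Psma8, a testis-specific alpha subunit, was marked in 5 of 10, with widths of 673, 0 and 0 bp with RANKL+I-BET, in the order of replicates 1, 2 and 3, then 336, 470 and 0 bp with RANKL, 703 bp with I-BET, and 0, 0 and 389 bp untreated. Psma6, a constitutive alpha subunit, was marked by this rule only in RANKL replicate 2 (1405 bp). RefSeq gives it a pair of starts, and both windows are shown because outside RANKL replicate 2 only the downstream one lay near peaks.
Psma6, upstream start (chr12:55383972-55384271, plus strand): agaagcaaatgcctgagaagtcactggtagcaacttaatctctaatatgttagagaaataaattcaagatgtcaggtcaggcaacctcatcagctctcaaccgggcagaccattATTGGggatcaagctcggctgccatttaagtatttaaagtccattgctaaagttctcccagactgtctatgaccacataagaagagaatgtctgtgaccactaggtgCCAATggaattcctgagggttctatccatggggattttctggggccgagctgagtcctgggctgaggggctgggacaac
Psma6, downstream start (chr12:55398575-55398874, plus strand): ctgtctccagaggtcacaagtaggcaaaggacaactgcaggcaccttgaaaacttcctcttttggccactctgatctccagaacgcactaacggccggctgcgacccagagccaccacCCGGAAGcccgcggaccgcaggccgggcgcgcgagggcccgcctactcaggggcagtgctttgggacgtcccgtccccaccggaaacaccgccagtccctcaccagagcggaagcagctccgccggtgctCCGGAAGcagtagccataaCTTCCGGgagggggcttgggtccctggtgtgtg
Capitals mark CCAAT, on either strand, in the upstream window and 3 copies of CCGGAAG, on either strand, in the downstream window. The upstream window has 3 CpG and the downstream one 22. The downstream start lies 14603 bp inside the gene, out of reach of the gene-end rule, and had a peak within 1 kb in 10 of 10 lists. Those peaks were 1772, 656 and 1466 bp wide with RANKL+I-BET, 1670, 3671 and 1806 bp with RANKL, 1773 bp with I-BET and 1928, 1643 and 1628 bp untreated, in replicate order. In 8 of the 10 lists the width lay between 1466 and 1928 bp, and the groups overlapped.

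The inhibitor Psmf1 (PI31), a regulator that binds the 20S core, was the only gene of the 51 marked in 0 of 10 lists, beside 5597 of all 21887 genes. Its RefSeq start also lies 2889 bp inside the annotated gene. Peaks within 1 kb of that start measured 819, 0 and 345 bp with RANKL+I-BET, 661, 998 and 619 bp with RANKL, 659 bp with I-BET and 404, 0 and 0 bp untreated. Psmf1 was thus marked at its start in 7 of 10 lists. These were RANKL+I-BET lists 1 and 3, all 3 RANKL lists, the I-BET list and 1 of 3 untreated lists. RANKL replicate 2 marked 72.9% of all genes with a RefSeq start at a start. The share of all genes with the pattern of Psmf1 was not counted. The other genes marked in RANKL replicate 2 only were Psmb11 (7722 bp), the thymic cortical beta subunit, and Psme2b (2519 bp), the Psme2-like copy, so that 4 of the 51 had no gene-end peak in the other 9 lists.

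Measured at the 47 RefSeq starts of 43 proteasome genes, the marks sat just downstream of the start. Coverage was highest 100 to 300 bp into the gene in every list, where 89.4% to 91.5% of the starts were covered in the RANKL+I-BET and RANKL lists numbered 1 and 3, 87.2% with I-BET, and 68.1% and 89.4% in untreated replicates 1 and 3. Over all 21263 starts the highest coverage in those lists was 33.7% to 39.3% with RANKL+I-BET or RANKL, 30.6% with I-BET, and 21.2% and 34.7% untreated. At 1 kb upstream coverage fell to 6.38% to 19.1% of the proteasome starts in the 7 lists numbered 1 or 3, beside 6.21% to 9.87% of all starts, with the widest gap in RANKL replicate 3 (19.1% beside 9.87%).

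**Figure D2:**
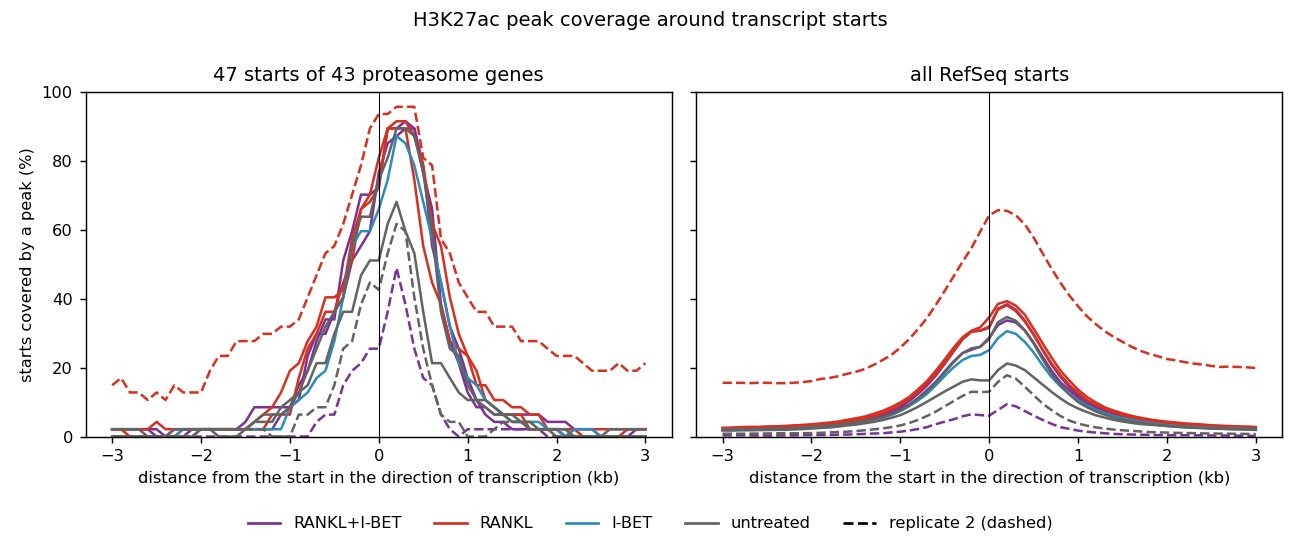
Percent of transcript starts covered by an H3K27ac peak (y axis) against distance from the start in kb in the direction of transcription (x axis), for 47 starts of 43 proteasome genes (left) and all 21263 RefSeq starts (right), one line per list. Colour gives the group and dashes the libraries numbered 2. Each list is highest 100 to 300 bp downstream of the start, and the dashed RANKL line lies above the others in both panels.

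The immunoproteasome genes were marked in all 7 lists numbered 1 or 3. Psmb9 (chr17:34182030-34187330), the interferon-inducible form that replaces Psmb6, had peaks of 1570, 0 and 1336 bp with RANKL+I-BET in the order of replicates 1, 2 and 3, then 1764, 5176 and 1677 bp with RANKL, 1344 bp with I-BET, and 1021, 834 and 1637 bp untreated. Psmb10 (chr8:105935728-105938392), which replaces Psmb7, had 1175, 0 and 1059 bp with RANKL+I-BET, 1144, 3121 and 1204 bp with RANKL, 1210 bp with I-BET and 176, 0 and 1231 bp untreated. Psmb8 (chr17:34198195-34201454), which replaces Psmb5, had 1117, 0 and 1013 bp with RANKL+I-BET, 598, 7971 and 1733 bp with RANKL, 843 bp with I-BET and 679, 0 and 901 bp untreated. In the lists numbered 1 and 3, both RANKL widths of Psmb9 lay above those of RANKL+I-BET and untreated cells, both RANKL+I-BET widths of Psmb8 lay above the untreated ones, and the widths of Psmb10 overlapped between all groups. The share of all genes with such orders in the deposited widths was not counted. With the library medians removed, as in the fit described below, both RANKL values of Psmb9 lay below both untreated ones, an order found in 19.2% of all genes. Both RANKL+I-BET values of Psmb9 also lay below both untreated ones (15.4% of all genes). On that scale both RANKL+I-BET values of Psmb10 (-0.18 and -0.19) lay above both RANKL ones (-0.23 and -0.24), an order of 20.5% of all genes. The RANKL+I-BET and untreated values of Psmb8 overlapped. In all 3 genes the RANKL list numbered 2 was the widest and the RANKL+I-BET list numbered 2 had no peak.

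Their constitutive counterparts were marked in all 10 lists, including the shortest. Psmb6 had 2239, 232 and 517 bp with RANKL+I-BET, 2740, 4142 and 1266 bp with RANKL, 529 bp with I-BET and 1822, 289 and 1007 bp untreated. In each group its list numbered 1 was wider than its list numbered 3. Peaks within 1 kb of its RefSeq start measured 921 and 517 bp in RANKL+I-BET lists 1 and 3, and 825 and 499 bp in RANKL lists 1 and 3. In untreated lists 1 and 3 they measured 230 and 1007 bp, the other order. Psmb7 had 872, 327 and 720 bp with RANKL+I-BET, 396, 913 and 1255 bp with RANKL, 737 bp with I-BET and 357, 796 and 1007 bp untreated. Psmb5, the chymotrypsin-like subunit, had 680, 496 and 1042 bp with RANKL+I-BET, 640, 2893 and 1133 bp with RANKL, 839 bp with I-BET and 543, 554 and 1040 bp untreated. Of the 48 genes other than the immunoproteasome, 31 were marked in RANKL+I-BET replicate 2, against 0 of the 3 immunoproteasome genes. That list marked 17.3% of all genes. In untreated replicate 2 it was 37 of 48 against 1 of 3, beside 27% of all genes. The 20 proteasome genes without a peak in RANKL+I-BET replicate 2 also included Psmb3, Psmc4, Psme2, Psmg1 and Psmg2. The difference between the 48 and the 3 genes was not tested, and 3 genes are too few to set apart from the share over all genes.

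**Figure D3:**
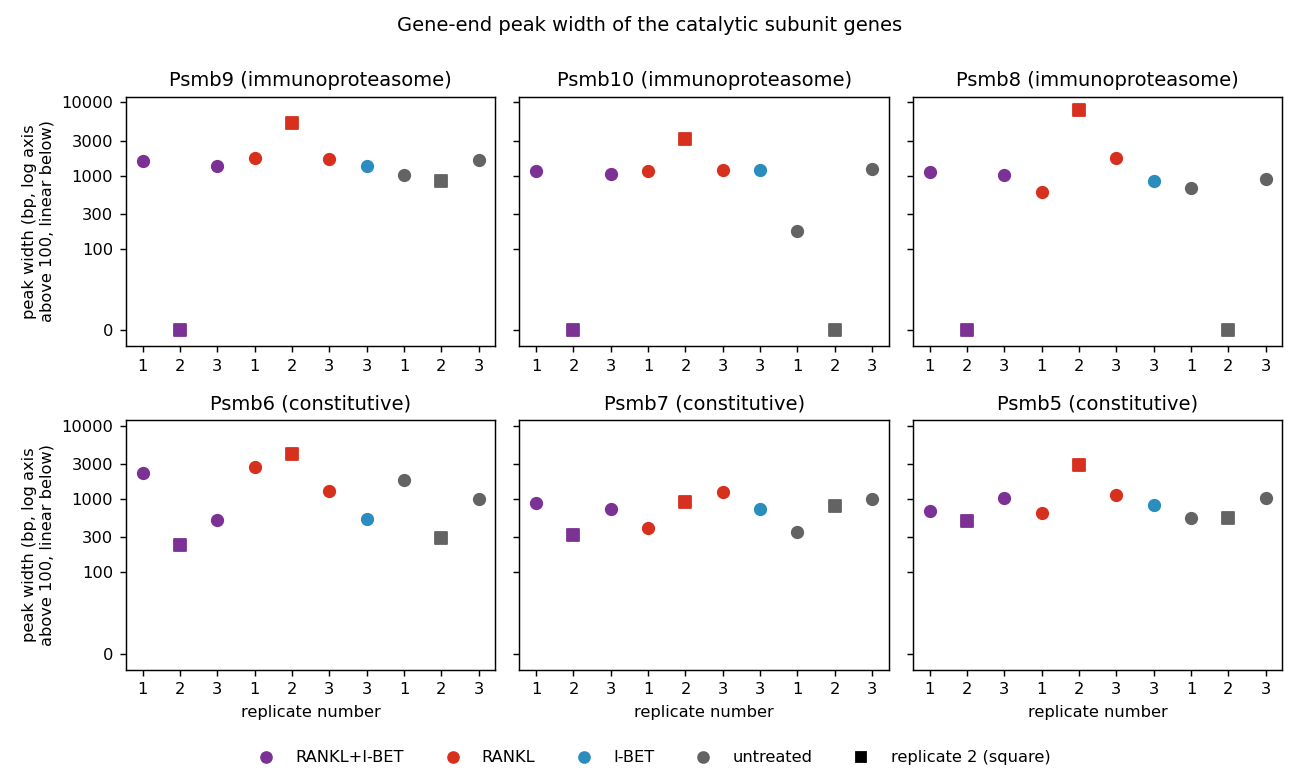
Summed width in bp of the gene-end peaks (y axis, log scale above 100 bp and linear below) of 3 immunoproteasome genes (top) and the constitutive subunits they replace (bottom) in each list, by replicate number (x axis). Colour gives the group and squares the libraries numbered 2. Psmb9, Psmb10 and Psmb8 are at 0 in the RANKL+I-BET library numbered 2, which marked 17.3% of all genes. Psmb6, Psmb7 and Psmb5 are above 0 in all 10 lists.

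Psmb8 and Psmb9 flank Tap1, the peptide transporter gene, and their peaks also touched its gene-end windows in all 8 and all 9 lists that marked them, so that the width cannot be assigned to 1 gene. Tap1 itself had 2687, 0 and 2349 bp with RANKL+I-BET, 2362, 6347 and 3410 bp with RANKL, 2187 bp with I-BET and 1700, 834 and 2538 bp untreated. The fold enrichment of a peak is the authors' own value, from their peak caller, and ranks peaks only within its list. By that rank Psmb9 lay at the 56.3rd and 34.8th percentile of marked genes in RANKL+I-BET lists 1 and 3, at the 94.5th and 53.7th in RANKL lists 1 and 3, at the 21.1st with I-BET, and at the 85.7th and 71.8th in untreated lists 1 and 3. Psmb10 ranged from the 17.8th to the 78.4th percentile over the same 7 lists and Psmb8 from the 0.909th to the 81.4th. The constitutive Psmb5 ranged from the 21.7th to the 84.7th. Ranks from lists of different length show no change between groups.

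In the 19S cap, Psmc1, Psmc2, Psmc3, Psmc5 and Psmc6 were marked in all 10 lists and Psmc4 in 7. Of the 14 Psmd genes, 9 were marked in all 10 lists, Psmd3, Psmd7 and Psmd8 in 9 (absent in RANKL+I-BET replicate 2 or, for Psmd8, in untreated replicate 2), Psmd9 in 8 and Psmd10 in 7. Psmd9 and Psmd10 encode chaperones that help assemble the ATPase ring. Psmd10 (gankyrin, chrX:140948425-140956711) had 686, 0 and 417 bp with RANKL+I-BET, 1985, 962 and 1299 bp with RANKL, 0 bp with I-BET and 1381, 0 and 759 bp untreated. Both of its RANKL+I-BET widths in the lists numbered 1 and 3 were below every RANKL and untreated width of those numbers. With the library medians removed, as in the fit described below, both values lay lower against RANKL in 12.6% of all genes and against untreated in 15.4%.

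The activators dock on the ends of the 20S core. Psme3, the nuclear PA28 gamma, was marked in all 10 lists, Psme1 and Psme2, the interferon-inducible PA28 alpha and beta, in 9, and Psme4 (PA200) in 8. Median widths of the marked activators were 1440, 698 and 1450 bp with RANKL+I-BET, 1420, 2490 and 1330 bp with RANKL, 1110 bp with I-BET and 983, 1140 and 1110 bp untreated, in replicate order. Of the assembly chaperones, Psmg4 was marked in all 10 lists, Psmg1 and Psmg2 in 9 and Psmg3 in 7. Their median widths were 1070, 856 and 1020 bp with RANKL+I-BET, 1050, 2730 and 1310 bp with RANKL, 1190 bp with I-BET and 471, 604 and 964 bp untreated. In RANKL+I-BET replicate 2 these medians rest on 2 activators and on 1 chaperone, Psmg4, which had 963, 856 and 1063 bp in the RANKL+I-BET lists. The RANKL list numbered 2 marked all 4 genes of either role and had the widest median.

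**Figure D4:**
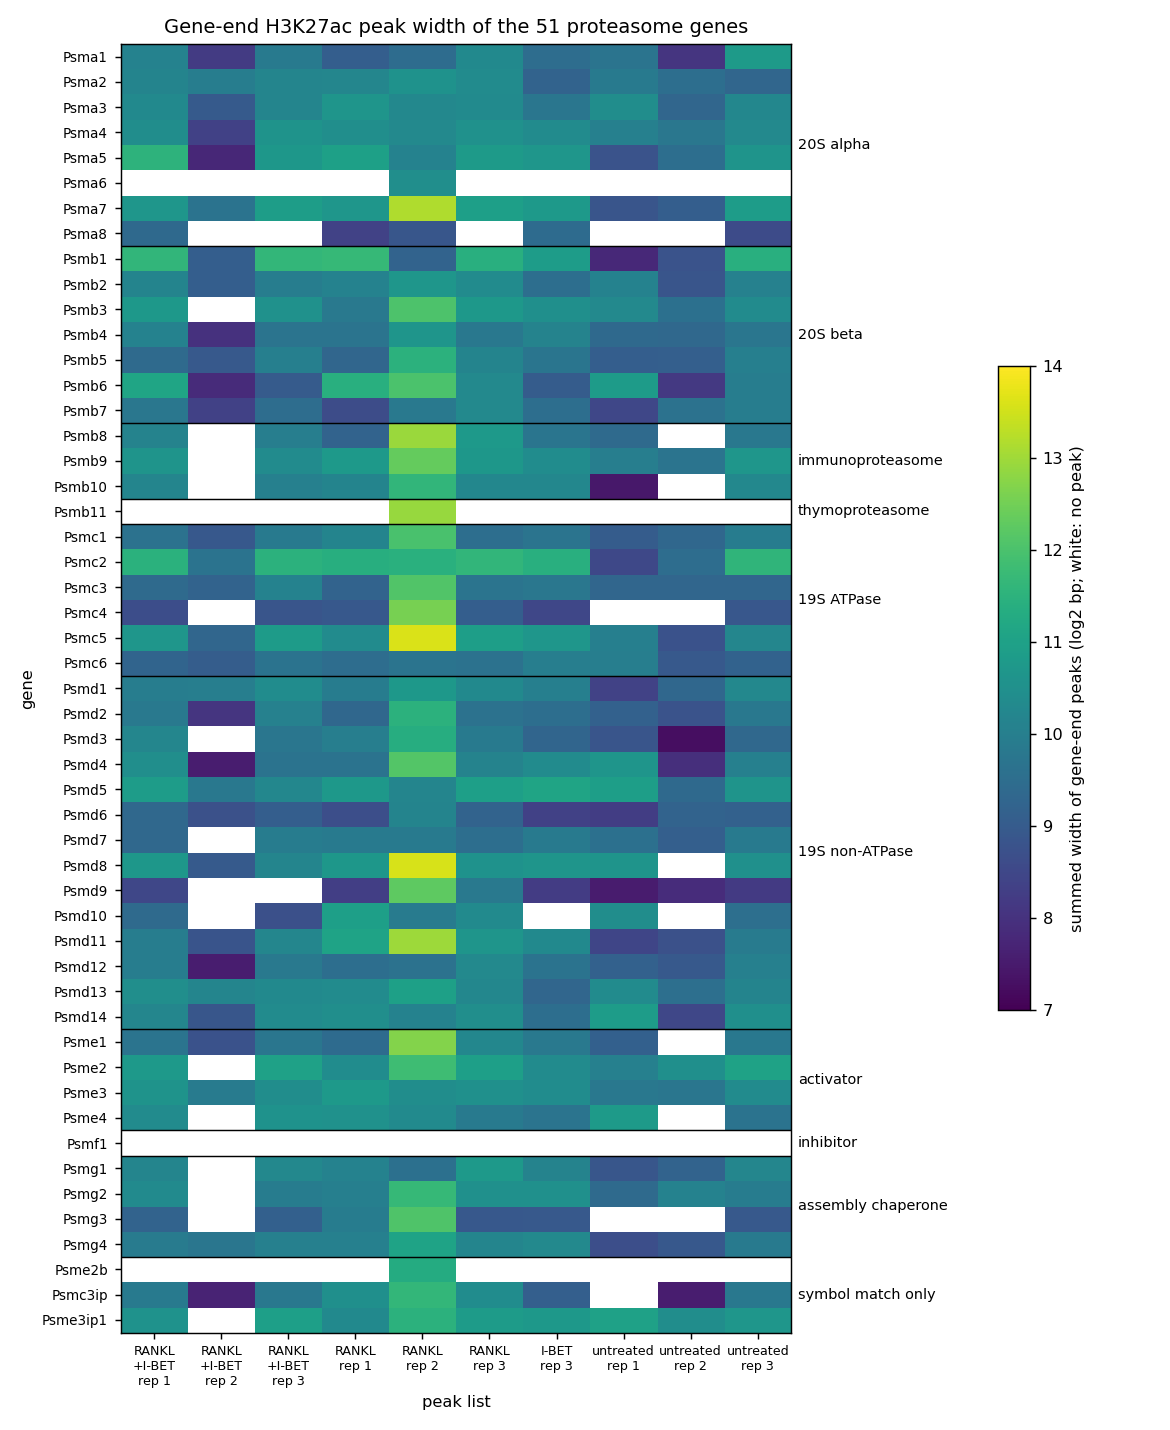
Summed width of the gene-end peaks of the 51 proteasome genes (rows, grouped by role) in the 10 lists (columns), as log2 bp by colour, with white for no peak. The white rows are Psmf1 (0 of 10 lists) and Psma6, Psmb11 and Psme2b (RANKL replicate 2 only), and the RANKL+I-BET column numbered 2 has the most white cells, 20 of 51.

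Although marked more often, proteasome genes did not carry wider peaks than other marked genes. Their median width was below that of all marked genes in 8 of 10 lists, at 1144 and 1085 bp beside 1244 and 1242.5 bp in RANKL+I-BET lists 1 and 3, 1100 and 1295 bp beside 1271 and 1345 bp in RANKL lists 1 and 3, 912 bp beside 1196 bp with I-BET, and 681, 600.5 and 1040 bp beside 874, 675 and 1195 bp untreated. The exceptions were RANKL+I-BET replicate 2 (496 beside 480.5 bp) and RANKL replicate 2 (2587 beside 2390 bp). Outside RANKL replicate 2, 93.0% to 100% of the marked proteasome genes in a list had a single peak, beside 87.1% to 94.8% of all marked genes. In RANKL replicate 2 it was 62.0%, beside 58.3% of all marked genes. Over the 6 libraries numbered 1 and 3, the widest marks among the genes fitted below were at Psmb1 (mean 2550 bp), a core beta subunit, Psmc2 (2500 bp), an ATPase, Psma5 (1740 bp), an alpha subunit, and Psme3ip1 (1720 bp), which binds the activator Psme3. The narrowest were at Psmd6 (517 bp) and the chaperone Psmg3 (520 bp), then the ATPases Psmc3 (746 bp) and Psmc6 (758 bp). The peaks of Psmb1 and Psmc2 lie in windows shared with Tbp and Dnajc2.

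Widths were then compared between groups on the scale log2(width + 500 bp), with the median of each library over the fitted genes removed, in 1 limma fit of the 6 libraries numbered 1 and 3. The fit held 7759 genes with a mean width of at least 500 bp, among them 44 of the 51. The 7 below the filter were Psma6, Psma8, Psmb11, Psmc4, Psmd9, Psme2b and Psmf1. Removing the library medians took out a shift between group medians. It was -0.1 for RANKL+I-BET against RANKL, 0.29 for RANKL+I-BET against untreated and 0.39 for RANKL against untreated. Median widths over the fitted genes were 1390 and 1280 bp in RANKL+I-BET lists 1 and 3, and 1430 and 1510 bp in RANKL lists 1 and 3. In untreated lists 1 and 3 they were 785 and 1250 bp, so the shifts against untreated rest largely on untreated replicate 1. The 3 comparisons share samples, so that their values are not independent of each other.

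RANKL+I-BET against RANKL asks whether the BET inhibitor altered the marks under RANKL. No proteasome gene and no gene at all (0.0% of 7759) passed an adjusted p of 0.05 (limma, Benjamini-Hochberg). At an unadjusted p under 0.05 there were 0 proteasome genes and 124 genes (1.6%). The median difference over the 44 genes was 0.08, with 32 wider and 12 narrower, beside a median of 0.02 and 54.6% wider over all genes. Without removal of the library medians the median was -0.02, so its direction depends on the scaling. The largest differences were at Psmd2 (0.40, SE 0.26), the scaffold of the cap's base, Psmb3 (0.36, SE 0.28), a core beta subunit, and Psme4 (0.29, SE 0.43). The smallest were at Psmd10 (-0.92, SE 0.40, unadjusted p = 0.0558 and adjusted p = 1.0, limma), the cap subunit gene Psmd11 (-0.46, SE 0.27) and Psmb6 (-0.42, SE 0.57). The difference at Psmd10 was -0.04 with all 9 libraries in the fit (adjusted p = 1.0, limma). Among the immunoproteasome genes the differences were -0.08 (SE 0.21) for Psmb9, 0.05 (SE 0.34) for Psmb10 and 0.10 (SE 0.35) for Psmb8, beside -0.42, 0.15 and 0.09 for Psmb6, Psmb7 and Psmb5.

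RANKL+I-BET against untreated gave the same outcome, with 0 of 44 proteasome genes and 0.0% of all genes past the adjusted threshold (limma), and 0 and 275 (3.54%) at an unadjusted p under 0.05. The median of the 44 was -0.06, with 17 wider and 27 narrower, beside 0.01 and 50.5% wider over all genes, and it was 0.23 without removal of the library medians. Psmb1 (0.96, SE 0.52), Psma5 (0.68, SE 0.32) and Psmc2 (0.65, SE 0.48) had the largest differences. For all of these the untreated library numbered 1 was low, at 226 bp for Psmb1, against 2731 bp in untreated replicate 3, and without untreated replicate 1 the difference of Psmb1 was 0.11. Psmd10 (-0.85, SE 0.40), Psmd14 (-0.58, SE 0.30), the deubiquitinase of the cap, and Psma1 (-0.49, SE 0.31) had the smallest. Psmb9 differed by -0.18 (SE 0.21), Psmb10 by 0.29 (SE 0.34) and Psmb8 by -0.01 (SE 0.35). Psmb6, Psmb7 and Psmb5 differed by -0.45 (SE 0.57), -0.10 (SE 0.38) and -0.20 (SE 0.31).

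RANKL against untreated asks what the differentiation signal did within 4 h. Again 0 of 44 proteasome genes and 0.0% of all genes passed the adjusted threshold (limma), and 1 proteasome gene and 331 genes (4.27%) had an unadjusted p under 0.05. That gene was Psmd11, a subunit that ties the cap's lid to its base, with 2130 and 1617 bp in RANKL lists 1 and 3, against 353 and 962 bp in untreated lists 1 and 3 (log2 difference 0.69, SE 0.27, unadjusted p = 0.0382, adjusted p = 0.827, limma). The difference was 0.02 when only the length inside the windows was counted and -0.08 with all 6 lists cut to one covered length. Both RANKL widths were above both untreated widths, and after removal of the library medians this held for Psmd11 and Psmc3ip, 2 of 44, beside 14.8% of all genes. The reverse order was found in 11 of 44, beside 19.2% of all genes. The median of the 44 was -0.17, with 15 wider and 29 narrower, beside 0.01 and 50.5% wider over all genes. Without removal of the library medians it was 0.22, the opposite sign.

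Besides Psmd11, the largest differences between RANKL and untreated lists were at Psmb1 (0.81, SE 0.52) and Psmc3ip (0.79, SE 0.38), whose product is a meiotic recombination factor and no subunit. The value of Psmb1 rests on untreated replicate 1: it was -0.05 without that library and 1.66 without untreated replicate 3 (adjusted p = 0.0564, limma). Psma1 (-0.75, SE 0.31), Psmd4 (-0.71, SE 0.35), a ubiquitin receptor of the cap, and Psme3ip1 (-0.58, SE 0.31) had the smallest. Psma1 had 543 and 1284 bp in RANKL lists 1 and 3, against 821 and 1794 bp in untreated lists 1 and 3. In both groups its list numbered 1 was the narrower. Among the immunoproteasome genes, Psmb9 differed by -0.09 (SE 0.21), Psmb10 by 0.24 (SE 0.34) and Psmb8 by -0.11 (SE 0.35), and the constitutive Psmb6, Psmb7 and Psmb5 by -0.04 (SE 0.57), -0.25 (SE 0.38) and -0.29 (SE 0.31). No difference of the 44 genes reached 1 log2 unit in any of the 3 comparisons, a size passed by 2.28% of all genes for RANKL+I-BET against RANKL, 3.57% for RANKL+I-BET against untreated and 3.43% for RANKL against untreated. With 2 libraries a group and a median SE of 0.3, differences of the size of that SE could not be told from 0 in these data. Nor could much larger ones. For RANKL against untreated, differences over all 7759 genes ran from -2.27 to 2.88, and the smallest adjusted p was 0.422 (limma).

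**Figure D5:**
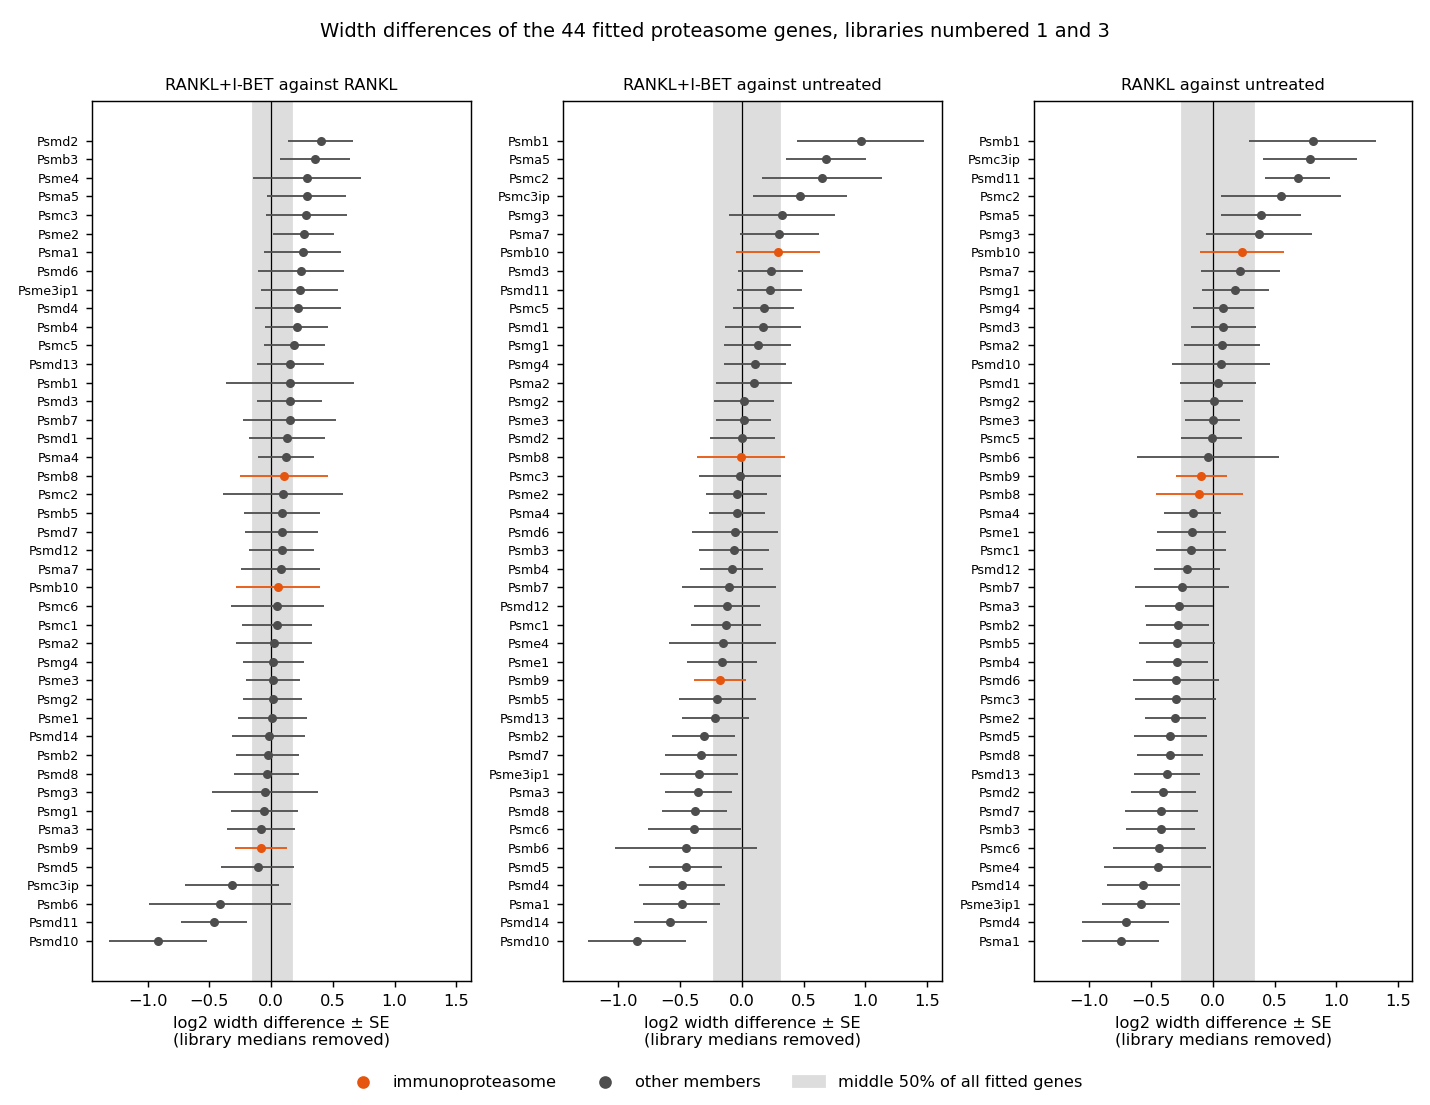
Log2 width difference (points) with its SE (bars) for the 44 fitted proteasome genes in 3 comparisons, ordered by size, from the limma fit of 6 libraries after removal of the library medians (x axis, log2 units). The grey band spans the middle 50% of all 7759 genes, and the immunoproteasome genes, in orange, lie between -0.18 and 0.29 in the 3 panels.

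I-BET alone has 1 library, numbered 3, and was set beside untreated replicate 3 without a test. Of the 51 genes, 46 were marked with I-BET and 47 in untreated replicate 3. Psmd10 was the only gene marked in the untreated list and not with I-BET (0 bp, against 759 bp), a pattern of 4.56% of all genes, and no gene had the reverse pattern (1.67%). On the same log2(width + 500 bp) scale, the median log2 ratio of the 47 genes was 0.01 with the median of all 8608 genes removed. On that scale none was at least 2-fold wider with I-BET (4.32% of all genes), and Psmd10 was the only one at least 2-fold narrower (7.68%). The added 500 bp makes a ratio smaller than that of the plain widths. Psma1 had 720 bp with I-BET, against 1794 bp in untreated replicate 3, a log2 ratio of -0.85 on that scale, and Psmd14 735 bp, against 1441 bp, a log2 ratio of -0.59. In the other direction, Psmc6 had 1029 bp with I-BET, against 593 bp in untreated replicate 3, a log2 ratio of 0.54. Psma8 had 703 bp, against 389 bp, a log2 ratio of 0.49. Psmb9, Psmb10 and Psmb8 had 1344, 1210 and 843 bp with I-BET, against 1637, 1231 and 901 bp in untreated replicate 3.

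Other genes of the pathway were taken from a written list of 30 regulators, ubiquitin genes, cofactors and antigen presentation genes, of which 29 were in the annotation. Of these, 13 were marked in all 10 lists, beside 13.6% of all genes, and 21 in all 6 lists numbered 1 and 3, beside 28.5%. Ecpas, whose product binds proteasomes, was marked in none, like 5597 of the 21887 genes. Nfe2l1, the transcription factor that raises proteasome genes when the proteasome is impaired, had 1896, 1243 and 1506 bp with RANKL+I-BET, 1240, 14735 and 1671 bp with RANKL, 1571 bp with I-BET and 1315, 1253 and 1593 bp untreated. Pomp, which matures the 20S core, had 1228, 156 and 1369 bp with RANKL+I-BET, 1056, 8104 and 1189 bp with RANKL, 1016 bp with I-BET and 656, 871 and 1358 bp untreated. For Nfe2l1 the lists numbered 1 and 3 overlapped between the groups. For Pomp both RANKL+I-BET widths lay above both RANKL widths, and its adjusted p in that comparison was 1.0 (limma). With the library medians removed, such an order was found in 20.5% of all genes. Of the 26 pathway genes fitted, 0 passed the adjusted threshold and 0 had an unadjusted p under 0.05 in any of the 3 comparisons (limma). Their median differences were 0.10 for RANKL+I-BET against RANKL, 0.03 for RANKL+I-BET against untreated and -0.09 for RANKL against untreated.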

How the data were processed

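H3K27ac was measured by ChIP-seq in RAW264.7 cells. Per the submitters' processing notes, reads passed FastQC, Bowtie2 and MACS2 on mm10 (GRCm38), with no versions and no settings given in the sources used here. Each of 10 deposited lists gives peaks with the authors' score, fold enrichment (a linear ratio over the caller's background) and p and q values as −log10. These columns were identified from their layout and used only within a list. Whether peaks were called against the matching input is not given in the sources used here. The lists hold no counts, so no depth and no counting interval can be stated. The 10 inputs were not used here.

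Peaks within 1 kb of either end of 21887 protein-coding genes were summed per gene in Python 3.11.15 (numpy 2.4.6, pandas 2.3.3), and the overlap code was tested on simulated peaks. limma 3.58.1 (R 4.3.3; moderated, trended prior) was fitted to log2(width + 500 bp), centred on library medians, for the libraries numbered 1 and 3 of 3 groups, over genes with a mean of at least 500 bp, with Benjamini-Hochberg adjustment at 0.05. It was tried on simulated widths with planted changes. Presence of a peak was counted without a test, since 3 against 3 allows no small p. Promoter windows came from RefSeq (GRCm38.p6).

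Genes are named if they are catalytic subunits, marked in 0 or 1 list, present in one group and absent in another, past the threshold, among the 3 largest or smallest differences of a comparison, or among the 4 widest or narrowest. Psma8, Psmd9 and other genes named for their number of lists, and Psma1, Psmd14, Psmc6 and Psma8 beside I-BET, were added after their values were seen. The members and lists were chosen with earlier results of these data known. Alternatives varied libraries, scaling, window, filter, pseudocount, peak threshold and measure, and a window at transcript starts and all 9 libraries at one covered length were added after seeing the data.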

Additional observations from a re-analysis of the deposited data

Results flagged for a closer look

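Psma6, Psmb11 and Psme2b had a gene-end peak in RANKL replicate 2, a library kept out of the width comparisons. They had none in the other 9 lists, which include RANKL replicates 1 and 3 and all untreated lists. Psma6 had a peak near its downstream start, out of reach of the gene-end rule, in all 10 lists. The summed gene-end widths in RANKL replicate 2 were 1405 bp for Psma6, 7722 bp for Psmb11 and 2519 bp for Psme2b. That list covers 185 Mb and marks 74.0% of all genes, and in it 9 of 9 lymphocyte markers and 8 of 10 markers of tissues not in the culture were also marked, values whose part in these peaks was not tested. Psme2b is a Psme2-like copy, and how the authors' alignment placed reads from such copies is not given in the sources used here.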

How the results depend on the processing

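No proteasome gene passed the adjusted threshold in any comparison under any of 22 other settings of the limma fit. Over all genes, peaks with a −log10 q of at least 5 gave 46 of 2140 genes for RANKL+I-BET against RANKL, where 8 proteasome genes were fitted, and a window of 500 bp gave 1 gene, Myo1c, in each comparison with untreated. The medians over proteasome genes moved more, and the cause was not tested. In the order RANKL+I-BET against RANKL, RANKL+I-BET against untreated and RANKL against untreated, they were 0.55, 0.0 and -0.54 with all 9 libraries, -0.02, 0.23 and 0.22 with widths as deposited, 1.28, 0.49 and 0.17 with a −log10 q of at least 5, and 0.15, 0.09 and 0.4 over 3 genes at one covered length for all 9 libraries. At one covered length for 6 libraries the first 2 were -0.13 and -0.33. Without the filter the comparisons with untreated gave -0.11 and -0.22, without shared ends -0.19 and -0.3, and with a mean width of at least 1000 bp -0.02 and -0.05. A pseudocount of 100 bp gave -0.22 for RANKL against untreated. Leaving out 1 library in turn gave medians of 0.04 to 0.1, -0.12 to -0.01 and -0.22 to -0.07.

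The difference in the mean number of marked proteasome genes between the first and second group of a comparison was -0.5 for RANKL+I-BET against RANKL without the libraries numbered 2, against -6.67 with them, and leaving out 1 library in turn gave -9.67 to -1.67, -4.67 to 3.33 and 2.67 to 7.17. With a −log10 q of at least 5 it was 14.3 for RANKL against untreated and 6.67 for RANKL+I-BET against untreated. Marked genes at that threshold averaged 9.67 with RANKL+I-BET (4 to 17 a list), 17.3 with RANKL (10 to 22) and 3.0 untreated (2 to 5). There the RANKL and untreated ranges did not overlap, and the share over all genes was not counted at that threshold. At one covered length the difference was 10, 5.0 and -5.0 in the order of comparisons above. Marked genes at one covered length averaged 16.0 with RANKL+I-BET (7 to 31 a list), 6.0 with RANKL (2 to 11) and 11 untreated (4 to 18). The order of the means turned round, but the ranges of the groups overlapped. That length, 3.44 Mb, is the whole of RANKL+I-BET replicate 2, so that this list stayed uncut and gave the 31. The share over all genes was not counted at that length. Of 504 single-gene values under other settings, over 9 genes, 64 changed sign and none became significant.

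Samples with the same replicate number deviated together to an uneven degree (correlations of 0.04 to 0.54, median 0.39, over 9 pairs). Over 18 pairs with different numbers the correlations were -0.51 to 0.35, with a median of -0.28. The lowest same-number values, 0.04 and 0.06, were from pairs with untreated replicate 1. The labels do not say that a number marks a shared batch. With the replicate number as a block the fit called 0 proteasome genes, and with all 9 libraries and the block the medians were again 0.55, 0.0 and -0.54. Depth is unknown, and the extent of the lists limits every count of marked genes.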

Other observations

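Of the antigen presentation genes on the pathway list, B2m, the light chain of MHC class I, was singled out after its values were seen. It had 3136, 0 and 5496 bp of gene-end peaks with RANKL+I-BET, 2261, 4275 and 3883 bp with RANKL, 3165 bp with I-BET and 2454, 762 and 1882 bp untreated, in the order of replicates 1, 2 and 3. The log2 width difference of B2m was 0.53 for RANKL+I-BET against RANKL, 0.53 for RANKL+I-BET against untreated and 0.0 for RANKL against untreated, with adjusted p-values of 1.0, 0.88 and 0.998 (limma).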
